A study of Mus musculus with 4 samples.

Results

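The 8 genes described here encode the receptor, kinase, transcription factor and known targets of the pathway through which leukaemia inhibitory factor (LIF) keeps mouse embryonic stem cells (ESCs) self-renewing. They were chosen by name as Lifr, Il6st, Jak1, Stat3, Socs3, Pim1, Pim3 and Gbx2. All 8 were found, each as a row of its own with no other symbol joined to it, among 14099 rows of RPKM (reads divided by transcript length and by library depth). The cells were Naa10-KO ESCs and WT littermate ESCs, with 2 libraries each. Both came from blastocysts of Naa10-/X C57BL/6 mothers mated to WT JF1 fathers, JF1 being an inbred strain distant from C57BL/6. All 4 libraries came from cells grown in N2B27 with the Mek inhibitor PD325901, the Gsk3 inhibitor Chir99021 and LIF, on irradiated fibroblast feeders for 5 passages and then without feeders for 5 more. The labels thus give Naa10-KO and WT cells the same medium with added LIF, and the strength of the stimulus in the cells was not measured.

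LIF binds LIFR, which pairs with gp130, the product of Il6st. The receptor tails carry Janus kinases, chiefly JAK1, which phosphorylate STAT3, and STAT3 then enters the nucleus and switches on its targets. Among these targets, Socs3 encodes a feedback inhibitor that shuts off gp130 and JAK signalling, Pim1 and Pim3 encode serine/threonine kinases that favour survival, and Gbx2 encodes a homeobox factor able to sustain mouse ESCs. RPKM reports transcript abundance and not phosphorylation, so the activity of STAT3 itself was not measured.

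The labels were checked first. Naa10, the catalytic subunit of the NatA N-terminal acetyltransferase, was counted in a row joined with Renbp, which had 28.9 and 34.4 RPKM in Naa10-KO against 105 and 106 RPKM in WT (limma adjusted p = 0.0342). That call ended in a limma fit without small RNA rows and rows with a 0, where 0 of 11661 rows passed, the smallest adjusted p was 0.0591 and 2626 rows had an unadjusted p under 0.05. Both Naa10-KO values lay below both WT values. ESC markers were present in every library, with 8 of 8 rows at 30.7 RPKM or more. Naa10-KO replicate 1 stood apart in fibroblast markers: the summed level of the 14 marker rows was 592 RPKM in Naa10-KO replicate 1 and 112 RPKM in Naa10-KO replicate 2, against 155 and 162 RPKM in the WT libraries. All 14 markers were higher in Naa10-KO replicate 1 than in replicate 2, and none was listed at 0. In Naa10-KO replicate 1, 12 of the 14 lay above both WT libraries (38.3% of all tested rows did) and 2, Lum and Pdgfrb, lay below both (54.6%). The contractile genes Acta2 and Tagln were the highest of the 14 there, at 132 and 192 RPKM. Postn was near WT, at 14.2 RPKM against 13.1 and 14.1 RPKM. In Naa10-KO replicate 2, 12 of the 14 lay below both WT libraries (48.3% of all tested rows did) and 1 above both (41.8%). The summed level of the ESC markers was 4047 and 4813 RPKM in Naa10-KO, against 4687 and 4787 RPKM in WT. The part of these shifts in the results was not tested. In bulk RNA, fewer cells of a type and less RNA per cell cannot be told apart. Depth was estimated at 73800000 and 85300000 fragments for the Naa10-KO libraries and 50800000 and 51800000 for the WT libraries. The lowest level of a member, Lifr in Naa10-KO replicate 1, then stood for about 359 fragments per kilobase.

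Stat3 and the targets Socs3, Pim1 and Gbx2 were higher in both Naa10-KO libraries than in either WT library, while the receptor and kinase genes Lifr, Il6st and Jak1 averaged lower. For Lifr and Il6st only Naa10-KO replicate 1 lay below both WT libraries, and for the target Pim3 the groups overlapped. Socs3 averaged 2.56 times, Gbx2 2.07 times, Stat3 1.58 times and Pim1 1.29 times its WT level. No member passed the threshold of a Benjamini-Hochberg adjusted p under 0.05 in limma over 11912 tested rows, of which 0.764% passed (0.218% as higher and 0.546% as lower in Naa10-KO). At an unadjusted limma p under 0.05 there were 4 of the 8 members, against 22.1% of all tested rows. The groups did not overlap for 5 members, against 59.3% of tested rows. Both Naa10-KO values exceeded both WT values for 4 members, against 24.4% of rows, and fell short of both for 1 member, against 34.9%. The Naa10-KO mean was the higher one for 5 members and for 42.7% of rows. The median log2 difference was 0.26 over the members and -0.06 over all tested rows, on the log2(RPKM + 1) scale used throughout. With 2 libraries against 2, an exact permutation test of a single gene cannot go below a two-sided p of 0.333.

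**Figure D1:**
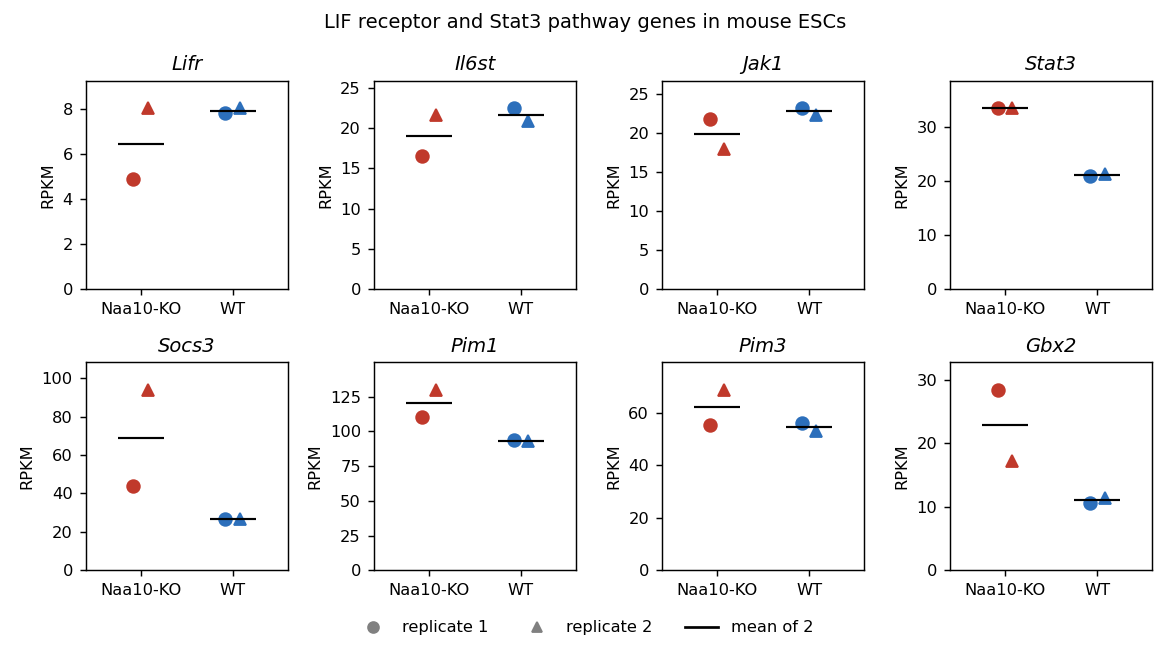
RPKM of the 8 genes in each library, on axes that start at 0 and differ between genes; circles are replicate 1, triangles replicate 2, and bars the mean of both. Stat3, Socs3, Pim1 and Gbx2 have both Naa10-KO points above both WT points, and the Naa10-KO points of Socs3 lie at 43.9 and 94.0 RPKM.

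Lifr encodes the LIF-specific receptor chain. It had 4.86 and 8.03 RPKM in Naa10-KO, against 7.81 and 8.03 RPKM in WT. Naa10-KO replicate 1 was thus low, and replicate 2 lay just above the upper WT value. Its log2 difference was -0.29 (SE 0.24, 95% interval -0.97 to 0.39, limma adjusted p = 0.509). Without Naa10-KO replicate 1, the library with high fibroblast markers, it was 0.019, and the relation of Lifr to those markers was not tested.

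Il6st encodes gp130, the signalling chain that LIF shares with interleukin-6 and related cytokines. It had 16.5 and 21.6 RPKM in Naa10-KO, against 22.5 and 20.9 RPKM in WT. As for Lifr, only Naa10-KO replicate 1 lay below both WT libraries, and the groups overlapped. The log2 difference was -0.19 (SE 0.16, 95% interval -0.63 to 0.25, limma adjusted p = 0.512), and it was -0.0033 without Naa10-KO replicate 1. The ratio of Il6st to Lifr RPKM within a library, which no scaling between libraries can change, was 3.40 and 2.69 in Naa10-KO and 2.88 and 2.60 in WT, again with overlap.

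Jak1, the tyrosine kinase bound to gp130, had 21.8 and 17.9 RPKM in Naa10-KO, against 23.2 and 22.4 RPKM in WT. It was the 1 member with both Naa10-KO libraries below both WT libraries, with replicate 2 the lower. For Jak1 the log2 difference was -0.20 (SE 0.13, 95% interval -0.55 to 0.15, limma adjusted p = 0.413). In the RefSeq gene spans of GRCm38.p6, Jak1 overlaps 4 other genes, of which Raver2 alone has a row of its own. Stat3, Pim1 and Pim3 overlap Gm46295, Gm26885 and Gm33049, which have no such row. No source states that reads were counted by strand. Some reads of Jak1, Stat3, Pim1 and Pim3 may thus belong to the overlapping genes.

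Stat3 had 33.4 RPKM in both Naa10-KO libraries, against 20.9 and 21.4 RPKM in WT. It was the member on which the Naa10-KO libraries differed least, by 0.0010 on the log2 scale, where the median over all tested rows was 0.25. The mean was 33.4 ± 0.0172 RPKM in Naa10-KO and 21.2 ± 0.293 RPKM in WT (SD, n = 2 each), with a log2 difference of 0.64 (SE 0.08, 95% interval 0.43 to 0.85). Its limma p was 0.00118 before adjustment, the 163rd smallest, and 0.0841 after, the lowest adjusted p of the 8 members. Among all rows tested, 9.55% had a difference at least as large in either direction. Within a library, Stat3 stood at 1.54 and 1.87 times the Jak1 level in Naa10-KO, against 0.903 and 0.955 times in WT, so the order of the kinase and its substrate was turned round.

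Socs3, whose product binds gp130 and JAK and blocks further STAT3 phosphorylation, had 43.9 and 94.0 RPKM in Naa10-KO, against 27.0 and 26.9 RPKM in WT. Both Naa10-KO libraries were high, and replicate 2 had 2.14 times the level of replicate 1. The log2 difference was the largest of the members at 1.23 (SE 0.39, 95% interval 0.13 to 2.32, limma adjusted p = 0.198), and 2.12% of tested rows had one at least as large. The Naa10-KO libraries differed by 1.08 on the log2 scale, a gap that 4.23% of rows matched or passed. Against the WT mean, Socs3 was 0.68 higher in Naa10-KO replicate 1 and 1.77 higher in replicate 2. The ratio of Socs3 to Stat3 was 1.31 in Naa10-KO replicate 1, close to 1.29 and 1.26 in WT, and 2.81 in Naa10-KO replicate 2. The high Socs3 level in replicate 2 was thus not matched by a further step in Stat3.

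The promoters of Socs3, Stat3 and Gbx2, the genes with the largest differences among the members, are shown because STAT dimers bind a palindrome spelled TTCNNNGAA. They come from RefSeq on GRCm38.p6, run 5′ to 3′ from 250 bases before to 50 after the gene's start, and hold in capitals any match to it or to the variant with 1 more base in the middle. All 3 genes lie on the minus strand, at chr11:117969317-117969616 for Socs3, chr11:100939491-100939790 for Stat3 and chr1:89931127-89931426 for Gbx2.
Socs3: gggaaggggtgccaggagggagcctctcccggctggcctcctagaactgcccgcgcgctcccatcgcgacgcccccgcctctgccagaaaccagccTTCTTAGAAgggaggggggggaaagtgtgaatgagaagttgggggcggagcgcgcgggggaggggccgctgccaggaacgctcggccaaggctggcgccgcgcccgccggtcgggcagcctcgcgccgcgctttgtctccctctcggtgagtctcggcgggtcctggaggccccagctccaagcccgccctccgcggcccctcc
Stat3: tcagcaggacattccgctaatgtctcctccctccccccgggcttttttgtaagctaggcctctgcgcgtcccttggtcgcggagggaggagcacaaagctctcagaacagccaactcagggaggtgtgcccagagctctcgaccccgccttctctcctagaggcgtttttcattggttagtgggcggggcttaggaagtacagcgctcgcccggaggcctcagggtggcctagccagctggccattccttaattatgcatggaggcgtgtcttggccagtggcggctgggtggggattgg
Gbx2: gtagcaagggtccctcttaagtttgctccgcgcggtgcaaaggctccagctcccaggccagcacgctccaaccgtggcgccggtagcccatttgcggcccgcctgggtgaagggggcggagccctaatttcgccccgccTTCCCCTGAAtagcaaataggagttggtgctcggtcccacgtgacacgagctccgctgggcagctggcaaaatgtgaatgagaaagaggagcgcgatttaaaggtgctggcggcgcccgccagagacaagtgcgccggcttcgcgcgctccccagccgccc

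The Socs3 window held 1 match to TTCNNNGAA, TTCTTAGAA, which ended 145 bases before the start. It was the only match among the 10 windows of the 8 members, of which Lifr and Pim1 have 2 each. Of all 32851 promoter windows in the table, 8.30% held this motif. The longer-spaced variant was found once among the members, as TTCCCCTGAA in Gbx2, and in 6.95% of all windows. Both motifs read the same on either strand in their fixed letters, so that both strands were searched at once, and no window of a member held both. A match is a string of letters in 300 bases and no measurement of binding. The windows of Stat3, Jak1, Il6st, Lifr, Pim1 and Pim3 held neither motif.

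Pim1 encodes a constitutively active kinase and is a classic cytokine target. It was the most abundant member, with 110 and 130 RPKM in Naa10-KO against 93.5 and 93.2 RPKM in WT. The groups did not overlap, and the WT libraries lay within 0.0040 of each other on the log2 scale. Naa10-KO exceeded WT by 0.36 on the log2 scale (SE 0.10, 95% interval 0.06 to 0.65, limma adjusted p = 0.179), a size reached by 29.3% of tested rows.

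Pim3, a close relative of Pim1, had 55.5 and 68.8 RPKM in Naa10-KO, against 56.2 and 53.2 RPKM in WT. Naa10-KO replicate 1 lay between the WT libraries and replicate 2 above them. The difference was 0.17 on the log2 scale (SE 0.13, 95% interval -0.19 to 0.54, limma adjusted p = 0.473). The ratio of Pim1 to Pim3 within a library was 1.99 and 1.89 in Naa10-KO, against 1.66 and 1.75 in WT, so both Naa10-KO ratios exceeded both WT ratios. The third gene of the family, Pim2, had 53.5 and 22.8 RPKM in Naa10-KO, against 17.0 and 16.9 RPKM in WT (log2 difference 1.00, limma adjusted p = 0.275). It was highest in Naa10-KO replicate 1, where Pim1 and Pim3 were the lower of the pair.

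Gbx2 had 28.4 and 17.2 RPKM in Naa10-KO, against 10.7 and 11.4 RPKM in WT. Both Naa10-KO libraries were high, but here replicate 1 was the higher, the reverse of Socs3. The log2 difference was 0.95 (SE 0.26, 95% interval 0.21 to 1.68, limma adjusted p = 0.168), and 3.56% of tested rows had one as large. Against the WT mean it was 1.29 in Naa10-KO replicate 1, the library with high fibroblast markers, and 0.60 in replicate 2. In replicate 2, 12 of 14 of those markers lay below both WT libraries, against 48.3% of all tested rows. The relation of Gbx2 to those markers was not tested.

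**Figure D2:**
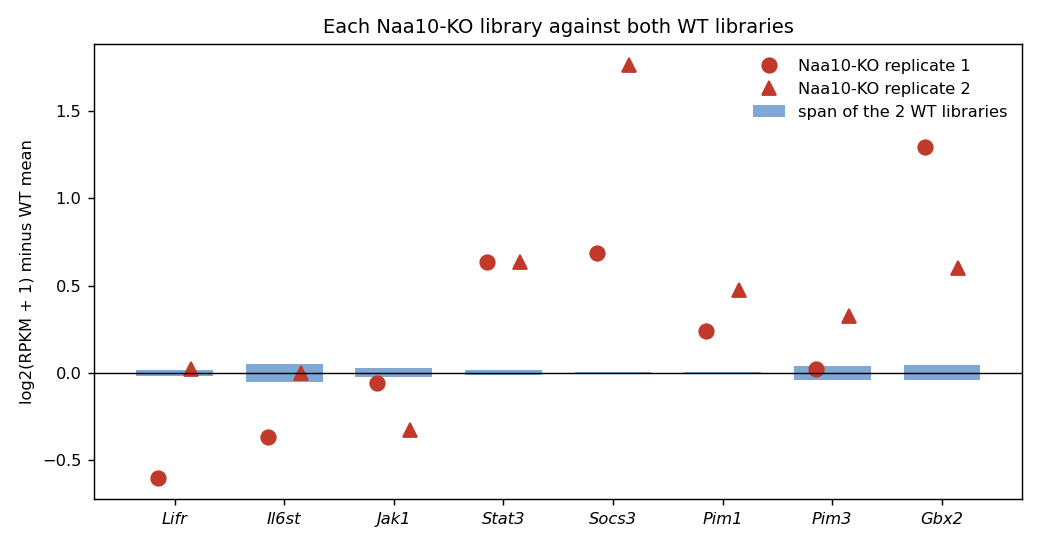
Difference of each Naa10-KO library from the WT mean in log2(RPKM + 1), with circles for Naa10-KO replicate 1, triangles for replicate 2 and blue bands for the span of both WT libraries. Socs3 reaches 1.77 in replicate 2 and Gbx2 1.29 in replicate 1, while both points of Stat3 lie at 0.64.

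Taken library by library, Naa10-KO replicate 1 lay above both WT libraries for 4 of the 8 members (38.3% of tested rows did) and below both for 3 (54.6%). Naa10-KO replicate 2 lay above both for 6 members (41.8%) and below both for 1 (48.3%). The median difference of the members from the WT mean was 0.13 in replicate 1 and 0.40 in replicate 2, against -0.08 and -0.02 over all tested rows. The WT libraries differed by a median of 0.04 over the members and 0.05 over all rows, and the Naa10-KO libraries by 0.34 over the members and 0.25 over all rows.

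By level per length of transcript, the order in WT replicate 2 was Pim1, Pim3, Socs3, Jak1, Stat3, Il6st, Gbx2 and Lifr. In WT the ranges of Il6st overlapped those of Jak1 and Stat3, and the other neighbours were apart. In Naa10-KO, Pim1 was highest in both libraries and Lifr lowest. Socs3 passed Pim3 in Naa10-KO replicate 2 but not in replicate 1, and Stat3 stood above Jak1 and Il6st in both. The ranges of Gbx2, Jak1 and Il6st overlapped in Naa10-KO.

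**Figure D3:**
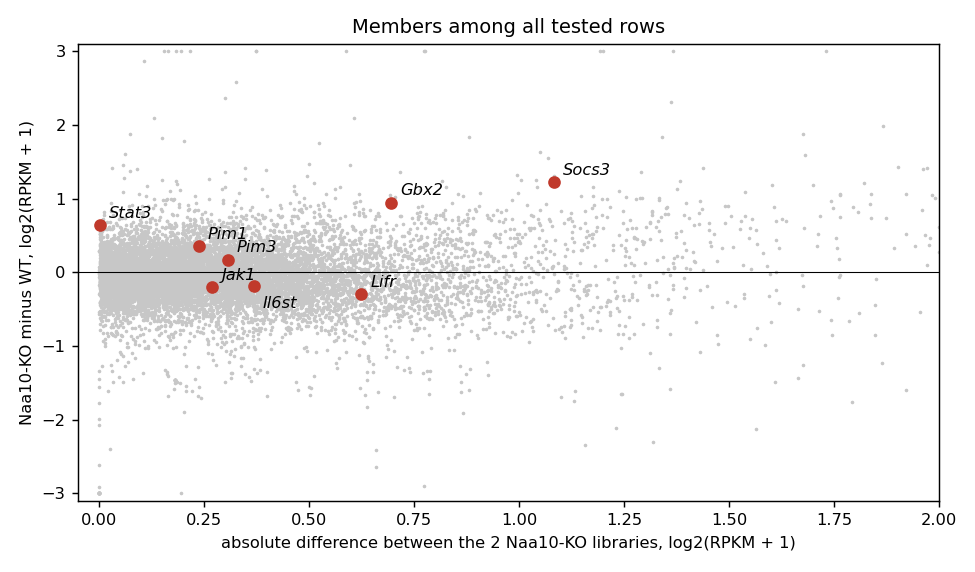
Each grey point is a tested row, with the absolute difference between the Naa10-KO libraries on the horizontal axis and the Naa10-KO minus WT difference on the vertical, both in log2(RPKM + 1); red points are the 8 members. The plot leaves out 136 rows beyond 2 on the horizontal axis and draws rows beyond 3 on the vertical at that edge. Stat3 lies at the left, where the Naa10-KO libraries coincide, and Socs3 at the right with a gap of 1.08.

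Rows with a pattern like that of Stat3 were sought among the 7805 single-symbol rows that averaged at least 5 RPKM, by the Euclidean distance of the 4 log2 values after the WT mean was taken off. Tmem57 was nearest at a distance of 0.0308, with 41.2 and 41.9 RPKM in Naa10-KO and 26.5 and 26.9 RPKM in WT. Tceal8 and Znhit1 followed at 0.0385 and 0.0411. For Socs3 the nearest row was Dppa3, a gene of the early embryo and germline, at a distance of 0.188, with 61.2 and 140 RPKM in Naa10-KO against 37.9 and 44.0 RPKM in WT. Tnfsf9 at 0.218 and Pcsk1n at 0.400 came next, so no row followed Socs3 as closely as the rows named for Stat3 followed Stat3. The distances rest on 4 libraries and describe those libraries only.

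Among the other ligands and receptors of the LIF family, 0 of 8 tested rows passed in limma (2 at an unadjusted p under 0.05), with 5 higher, 3 lower and a median log2 difference of 0.28. Of all tested rows, 0.764% passed, 22.1% had an unadjusted limma p under 0.05 and 42.7% were higher in Naa10-KO. Against WT, Naa10-KO replicate 1 had a median of 0.59 and replicate 2 one of -0.12. Lif itself had 8.87 and 3.14 RPKM in Naa10-KO, against 4.59 and 3.87 RPKM in WT, with the Naa10-KO libraries on opposite sides of WT. Il6ra, the interleukin-6 receptor chain, had 2.79 and 1.76 RPKM in Naa10-KO, against 0.893 and 0.931 RPKM in WT (limma adjusted p = 0.157). The small p-values of this list also included Ctf1, a ligand of LIFR, at 1.44 and 1.88 RPKM in Naa10-KO against 1.10 and 0.990 RPKM in WT (limma adjusted p = 0.239). Cntf, another such ligand, was counted in a row joined with Zfp91 and cannot be separated from it; that row had a log2 difference of -0.30 (limma adjusted p = 0.162). Osmr, the oncostatin M receptor, stayed below the level filter and had 2.89 and 0.517 RPKM in Naa10-KO, against 0.781 and 0.944 RPKM in WT. Lif and Osmr were each highest in Naa10-KO replicate 1, where the fibroblast markers summed to 592 RPKM, and their relation to those markers was not tested. Ctf1 and Il6ra exceeded both WT values in each Naa10-KO library.

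Of the other Janus kinases, STATs and adaptors, 0 of 19 tested rows passed in limma (5 at an unadjusted p under 0.05), with 4 higher, 15 lower and a median log2 difference of -0.15. Both Naa10-KO libraries lay below both WT libraries for 11 of the 19, against 34.9% of all tested rows. Over all tested rows, 22.1% had an unadjusted limma p under 0.05 and 42.7% were higher in Naa10-KO. Stat2, a mediator of interferon signals, had 2.32 and 3.38 RPKM in Naa10-KO, against 8.98 and 8.51 RPKM in WT (log2 difference -1.36, limma adjusted p = 0.0902). Stat4, Stat5a and Stat5b had log2 differences of -0.31, -0.19 and -0.39, and both Naa10-KO libraries lay below both WT libraries for each. Stat6 was listed at 0 in 3 libraries and at 13.2 RPKM in Naa10-KO replicate 2, and was not tested. Jak2 had a log2 difference of -0.19 and Tyk2 of 0.09, and Jak3 was counted in a row joined with Insl3. Pik3ca, a catalytic subunit of phosphoinositide 3-kinase, had 3.22 and 3.24 RPKM in Naa10-KO, against 4.65 and 4.44 RPKM in WT (limma adjusted p = 0.168). Gab1, an adaptor to the MAP kinase and phosphoinositide branches, had 97.0 and 95.1 RPKM in Naa10-KO, against 82.1 and 81.4 RPKM in WT (limma adjusted p = 0.169).

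Of the other feedback inhibitors and phosphatases, 0 of 16 tested rows passed in limma (2 at an unadjusted p under 0.05), with 9 higher, 7 lower and a median log2 difference of 0.07. The shares over all tested rows were 22.1% at an unadjusted limma p under 0.05 and 42.7% higher in Naa10-KO. Of the other SOCS family rows none passed, and differences between them were not tested. Cish, a relative of Socs3 and a target of STAT5, had 3.92 and 4.30 RPKM in Naa10-KO, against 2.90 and 2.33 RPKM in WT (log2 difference 0.50, limma adjusted p = 0.168). Socs2 had 63.8 and 73.4 RPKM in Naa10-KO, against 56.1 and 58.6 RPKM in WT (log2 difference 0.25, limma adjusted p = 0.250). Socs1, a strong JAK inhibitor of the interferon response, had 6.69 and 6.34 RPKM in Naa10-KO, against 8.38 and 10.1 RPKM in WT (log2 difference -0.44, limma adjusted p = 0.183). Socs4, Socs5, Socs6 and Socs7 had log2 differences of -0.06, 0.07, 0.22 and -0.11. Per length of transcript, Socs2 exceeded Socs3 in both WT libraries, and Socs3 exceeded Socs2 in Naa10-KO replicate 2 alone. Ptpn6, which encodes the phosphatase SHP-1, had 8.40 and 20.6 RPKM in Naa10-KO, against 8.29 and 8.54 RPKM in WT, so that like Socs3 it was highest in Naa10-KO replicate 2. Pias3, an inhibitor of STAT3, had 9.79 and 10.1 RPKM in Naa10-KO, against 12.9 and 10.5 RPKM in WT.

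Of further genes that ESC work names as Stat3 targets, 1 of 18 tested rows passed, and 11 were higher and 7 lower, with a median log2 difference of 0.16. For 9 of the 18, both Naa10-KO values exceeded both WT values, against 24.4% of all tested rows, and 7 had an unadjusted limma p under 0.05, against 22.1%. Over all tested rows, 0.764% passed and 42.7% were higher in Naa10-KO. Junb, an AP-1 factor, was the row that passed, as higher (log2 change 1.46, limma adjusted p = 0.0156). Its call ended, as that of the Naa10 row did, in the fit without small RNA rows and rows with a 0, and also without either WT library. Myc had 45.9 and 41.0 RPKM in Naa10-KO, against 21.4 and 21.3 RPKM in WT (log2 difference 0.99, limma adjusted p = 0.0541). Bcl3, a coregulator of NF-kappaB, had 32.9 and 30.7 RPKM in Naa10-KO, against 18.6 and 19.3 RPKM in WT (log2 difference 0.72, limma adjusted p = 0.0841).

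On the mean of both Naa10-KO libraries, the naive pluripotency factors on that list did not share a direction. Klf5 had 369 and 493 RPKM in Naa10-KO, against 320 and 267 RPKM in WT (log2 difference 0.54, limma adjusted p = 0.212). Klf4, a direct target of STAT3 in ESCs, had 118 and 201 RPKM in Naa10-KO, against 205 and 192 RPKM in WT (limma adjusted p = 0.482). Tfcp2l1, a target that can sustain mouse ESCs when its level is forced up, had 34.3 and 68.8 RPKM in Naa10-KO, against 60.3 and 57.4 RPKM in WT (limma adjusted p = 0.672). Klf4 and Tfcp2l1 were low in Naa10-KO replicate 1 and near or above WT in replicate 2, while Stat3 was the same in both libraries. Esrrb, Nanog and Tbx3, on the same list, also lay below both WT libraries in replicate 1. Their log2 differences from the WT mean were -0.29, -0.55 and -0.99 there, and 0.41, 0.29 and -0.07 in replicate 2. Klf5 was above both WT libraries in each.

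**Figure D4:**
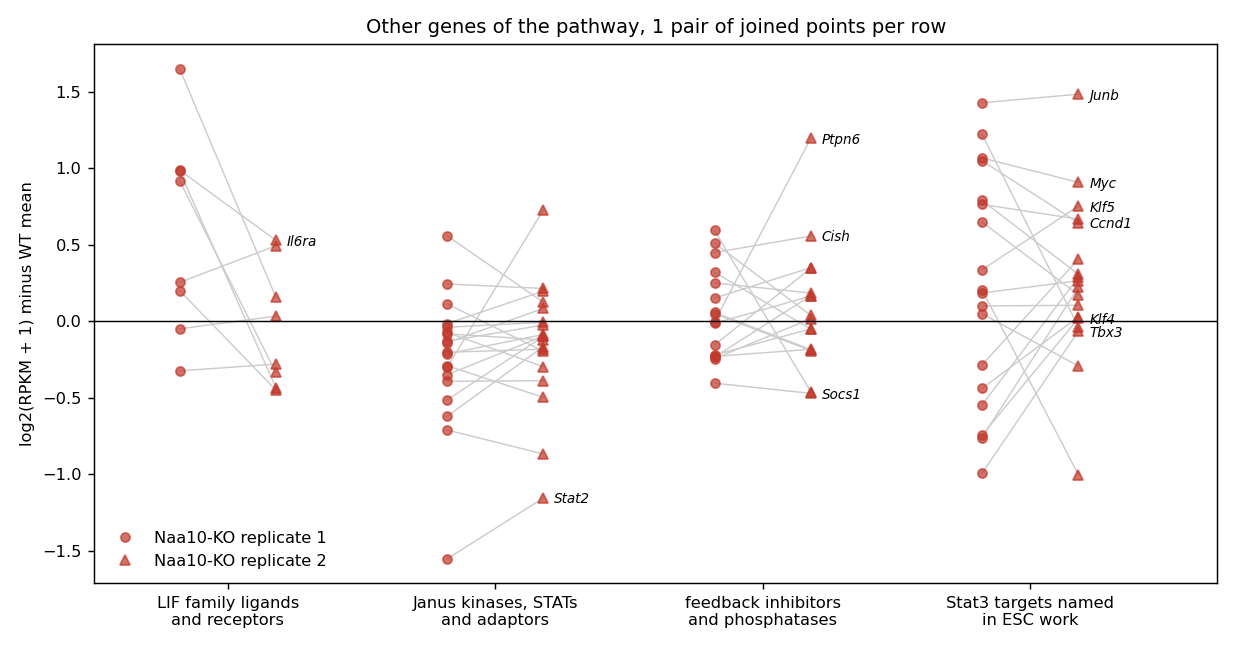
Difference from the WT mean in log2(RPKM + 1) for the tested rows of 4 lists of other pathway genes, with circles for Naa10-KO replicate 1 and triangles for replicate 2, joined by a line for each row and named for a few. Stat2 lies below 0 in both Naa10-KO libraries and Junb, Myc and Bcl3 (not named in the plot) above 0 in both, while Klf4 is low in replicate 1 alone.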

How the data were processed

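Polyadenylated RNA of mouse ESCs was sequenced in 2 Naa10-KO and 2 WT libraries. The authors deposited RPKM, per the file headers, in 1 table per library. Cufflinks and bedtools were named as tools and mm9 as the build, per the submitters' processing notes. The aligner, the annotation and any strand setting were not given in the sources used here. Per the labels, the protocol broke RNA into fragments of about 200 bp. Differences were computed on log2(RPKM + 1) with limma 3.58.1 in R 4.3.3 (mean-variance trend, two-sided) over the 11912 rows that reached 1 RPKM in 2 libraries or more, with Benjamini-Hochberg adjustment over all of them. A fold change on this scale understates that of low genes. Ratios of means are of RPKM.

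An exact 0 may be a failed estimate (323 rows); no member was at 0. Depth was estimated from the steps between low RPKM values of single-transcript genes over 500 nt, assuming fragments of 200 nt. Steps of rows up to 75 nt gave relative depths of 1.46 and 1.68 for Naa10-KO and 1 and 1.02 for WT. The mean chi-square over genes estimated at 100 to 500 fragments was 54.1 between the Naa10-KO libraries (415 genes) and 1.88 between the WT libraries (389 genes), where sampling noise gives about 1, and both WT libraries were kept. Labels call all 4 biological replicates without saying whether cultures or lines were separate, so p-values measure only the spread between these libraries.

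The members, lists and rules were chosen with earlier results of these data known. Named are the members, the Naa10 row, genes of the lists, and the 3 rows nearest to Stat3 and to Socs3. Within a list, rows past the threshold, those with small p and relatives of a member come first. Lif, Osmr, Ptpn6, Pias3, Gab1, Klf4, Klf5, Tfcp2l1, Esrrb, Nanog and Tbx3 were picked for their role after their values were seen. Acta2, Tagln, Lum, Pdgfrb and Postn were picked for their values. Osm, Ptprc and Gbx1 had no row under these symbols and so were not analysed here. Some list genes that enter the counts are not reported by name. Promoter sequences and gene spans come from RefSeq tables of GRCm38.p6, another build than the deposited values. Python 3.11.15 and pandas 2.3.3 read the tables. The limma fit was tested on simulated data with the same spread in all libraries. In the real data the median log2 difference was 0.25 within Naa10-KO and 0.05 within WT, so that test does not cover their unequal spreads.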

Additional observations from a re-analysis of the deposited data

How the results depend on the processing

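Over 9 alternatives that kept all libraries (other pseudocounts, filters and scalings, no trend, and the replicate block), no member changed direction and none passed; the adjusted limma p of Stat3 ran from 0.0699 to 0.215. The count of 91 called rows became 40 with no filter on low values and 0 without rows at 0 and small RNA rows, where the 1 call among Stat3 targets also went to 0. The replicate numbers are not known to pair the samples. The replicate block gave 44 calls, and the crossed pairing, tried after the data were seen because the deviations of same-numbered libraries correlated at -0.215, gave 133 and is only a number of calls.

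Leaving out 1 library leaves its partner alone, and the fit then takes the spread from the other pair, so calls follow that pair: 12 and 15 rows without a WT library, up to 7081 without a Naa10-KO library. The log2 differences then ran from -0.60 to 0.019 for Lifr, which turned round without Naa10-KO replicate 1, from -0.37 to -0.0033 for Il6st, -0.33 to -0.062 for Jak1, 0.62 to 0.65 for Stat3, 0.68 to 1.77 for Socs3, 0.24 to 0.47 for Pim1, 0.020 to 0.33 for Pim3 and 0.60 to 1.29 for Gbx2. Calls ran from 0 to 5 for the ligand and receptor list, 0 to 11 for Janus kinases, STATs and adaptors, 0 to 8 for feedback inhibitors, 0 to 15 for Stat3 targets and 0 to 1 for Pim2. Each member had an estimated 359 fragments per kilobase or more in every library, assuming fragments of 200 nt.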

Other observations

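Other ligands of the family lay below the level filter and were not tested. Clcf1, a cytokine that signals through gp130 and LIFR, had 3.46 and 0.589 RPKM in Naa10-KO, against 0.254 and 0.478 RPKM in WT. Il6 had 2.90 and 0.408 RPKM in Naa10-KO, against 0.620 and 0.824 RPKM in WT. Both were highest in Naa10-KO replicate 1, the library with high fibroblast markers, and their relation to those markers was not tested. Pramel7, named in ESC work as a Stat3 target, had 0.195 and 1.25 RPKM in Naa10-KO, against 0.130 and 0.266 RPKM in WT, and was highest in Naa10-KO replicate 2, as Socs3 was.

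Among ESC markers, 0 of 8 tested rows passed in limma (4 at an unadjusted p under 0.05), with 4 higher and 4 lower in Naa10-KO. Over all tested rows, 22.1% had an unadjusted limma p under 0.05 and 42.7% were higher in Naa10-KO. Utf1 had 453 and 445 RPKM in Naa10-KO, against 300 and 295 RPKM in WT (log2 difference 0.59, limma adjusted p = 0.0646), with both Naa10-KO libraries close together as for Stat3. Tdgf1, a coreceptor of Nodal, had 409 and 444 RPKM in Naa10-KO, against 349 and 346 RPKM in WT (limma adjusted p = 0.152). In the other direction, the joined row of Dppa5a and Ooep had 1698 and 2018 RPKM in Naa10-KO, against 2476 and 2578 RPKM in WT (log2 difference -0.45, limma adjusted p = 0.151).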
